A study of Homo sapiens with 10 samples.

Results

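The interleukins, a set of secreted signalling proteins of blood and immune cells, were followed together with their receptors and with the haematopoietic growth factors and receptor chains of the same signalling system in a human chronic myeloid leukaemia (CML) cell line and its cyclophosphamide resistant subline. Members were all probe sets whose platform symbol starts with IL and a digit, plus the named colony-stimulating factors, LIF, OSM, their receptors and the ligands KITLG, FLT3LG, THPO and EPO. Genes on chromosome 8 were left out, which removed 2 probe sets. This gave 60 genes with 89 probe sets, out of 8226 genes and 12558 probe sets tested. Of the symbols named singly, CSF2, EBI3 and THPO had no probe set of their own here. A further probe set listed IL23A together with a T cell receptor segment and was assigned to no gene. The arrays compared were 5 of the resistant subline and 5 of the sensitive parental line, each hybridised with total RNA from cells grown in tissue culture medium. CML is the leukaemia defined by the BCR-ABL fusion kinase, and the resistant group is a single subline of the sensitive line. The labels name neither the line nor the way in which resistance was obtained, and they do not say whether the 5 arrays of a line had cultures of their own, so that p-values measure only spread between these arrays, possibly technical.

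Most interleukins and growth factors of this set act through receptors without kinase activity of their own. Binding brings receptor chains together, JAK kinases on their tails phosphorylate STAT proteins, and the STAT proteins enter the nucleus. Many receptors pair a chain that is private to 1 ligand with a chain shared by a family: the common beta chain for IL-3, IL-5 and GM-CSF, the common gamma chain for IL-2, IL-4, IL-7, IL-9, IL-15 and IL-21, and gp130 for IL-6, IL-11, LIF and oncostatin M. Receptors of the IL-1 family use another route, through the adaptor MyD88 to NF-kappaB. In myeloid cells, growth factor receptors such as CSF3R and IL5RA accompany maturation towards neutrophils and eosinophils.

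Values are signals, a linear brightness per probe set and array. A signal counted as above the limit where it exceeded the 95th percentile of 32 control probe sets without a human target on the same array, a limit that lay between 319.7 and 739.8. Between 28 and 39 member probe sets were above it on resistant arrays, and between 27 and 45 on sensitive arrays. The share of all probe sets above it was 51% to 61.3% on resistant and 52.7% to 59.1% on sensitive arrays. Of the 89 member probe sets, 26 were never above the limit and 13 were above it on all 10 arrays. The haematopoietic genes PTPRC, MYB and GATA2 were above the limit on all 10 arrays, as were BCR and ABL1. CD34 was above it on 4 resistant and 5 sensitive arrays, and ANPEP on 1 and 5. Granulocytic genes were mixed. MPO and SPI1 were above it on only 2 and 0 resistant arrays, and on 1 and 5 sensitive arrays. PRTN3, AZU1 and ELANE were above it on 0 resistant and 5 sensitive arrays, and CEBPA and CTSG on 4 and 5. CAMP was above it on 3 and 2, LTF on 1 and 0, and LCN2, MMP8, MMP9 and CEACAM8 on none. Of 10 measured markers of myeloid leukaemia lines, ANPEP and CEBPA were lower in resistant cells (adjusted p = 0.0211 and 0.0283, limma) and 0 were higher. By the same threshold and their brightest probe set, 3.46% of all genes were lower and 4.94% higher.

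In resistant cells, 7 member genes rose (11.7%, beside 5.28% of all genes) and 6 fell (10%, beside 3.74%). The genes that rose were IL1B, IL1RL1, IL18RAP, IL2RA, IL15, IL6ST and IL16. The genes that fell were IL32, CSF3R, IL5RA, CSF2RB, IL27RA and IL4R. At a Benjamini-Hochberg adjusted p under 0.05 in limma, 15 of 89 member probe sets (16.9%) were called, 8 higher and 7 lower. The share called among all probe sets was 7.41%, with 4.42% higher and 2.99% lower. Counted by gene, 13 of 60 members (21.7%) had a called probe set, where 9.02% of all genes did. All 15 called probe sets were among the 42 member probe sets above the limit on at least 3 arrays of a group (35.7%), a class in which 11.5% of all probe sets were called, 6.78% higher and 4.75% lower. A probe set can enter this class through 1 group alone, as IL32 did with 0 resistant and 5 sensitive arrays. The class therefore favours probe sets that differ between the groups, among members and among all probe sets. Signals of the lines were fully separate in 12 member probe sets (13.5%), where 8.5% of all probe sets were without overlap. The median log2 difference of the 89 probe sets was 0.02, close to the 0.03 of all probe sets, and the median of the 42 brighter ones was -0.37 beside 0.03. Log2 differences are on the scale log2(signal + 114.8), which understates the change of dim probe sets. Counts moved with single arrays: without sensitive replicate 2 there were 4 member calls higher and 4 lower, and without resistant replicate 5 there were 5 higher. Without resistant replicate 1, resistant replicate 4 or sensitive replicate 1 there were 4 lower. Calls over all 12558 probe sets moved too. With every array they were 555 higher and 376 lower. Without sensitive replicate 2 they were 428 and 263, and without resistant replicate 5 there were 450 higher. Without resistant replicate 1, resistant replicate 4 or sensitive replicate 1 there were 305, 345 and 292 lower. Because the arrays hold bulk RNA, fewer cells that carry a transcript and less transcript per cell cannot be told apart in any of these values.

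**Figure D1:**
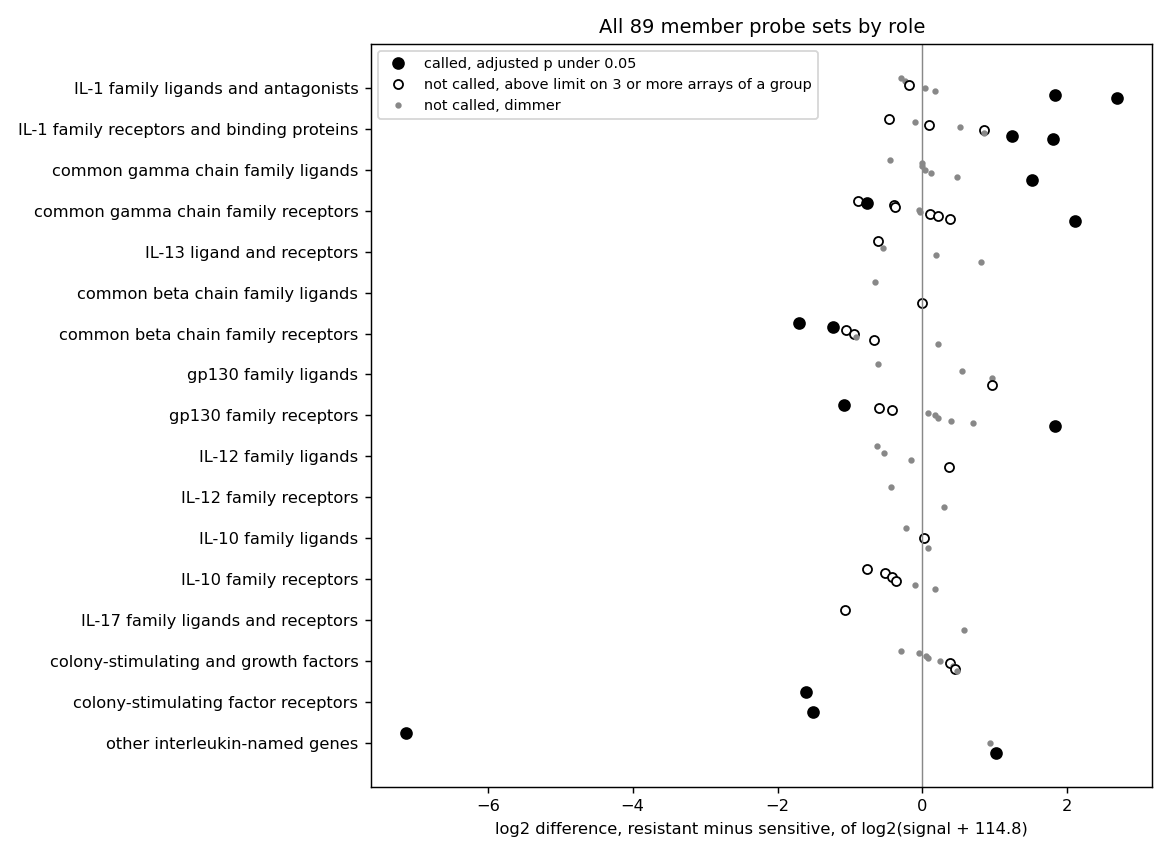
Log2 difference, resistant minus sensitive, of each of the 89 member probe sets (x axis), grouped by role (y axis). Filled black points are the 15 called probe sets, open points are others above the limit on at least 3 arrays of a group, and small grey points are dimmer ones. The common beta chain receptors lie mostly left of 0, IL1B and IL2RA, at 2.68 and 2.11, lie furthest to the right, and IL32 stands alone at -7.12.

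Of 28 ligand genes, 11 had a probe set above the limit on at least 3 arrays of a group, and of 32 receptor genes 22 did. Among ligands 3 genes rose (IL1B, IL15 and IL16) and 1 fell (IL32). Among receptors 4 genes rose (IL1RL1, IL18RAP, IL2RA and IL6ST) and 5 fell (CSF3R, IL5RA, CSF2RB, IL27RA and IL4R). Of all genes 5.28% rose and 3.74% fell. No gene had probe sets called in opposite directions.

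**Figure D2:**
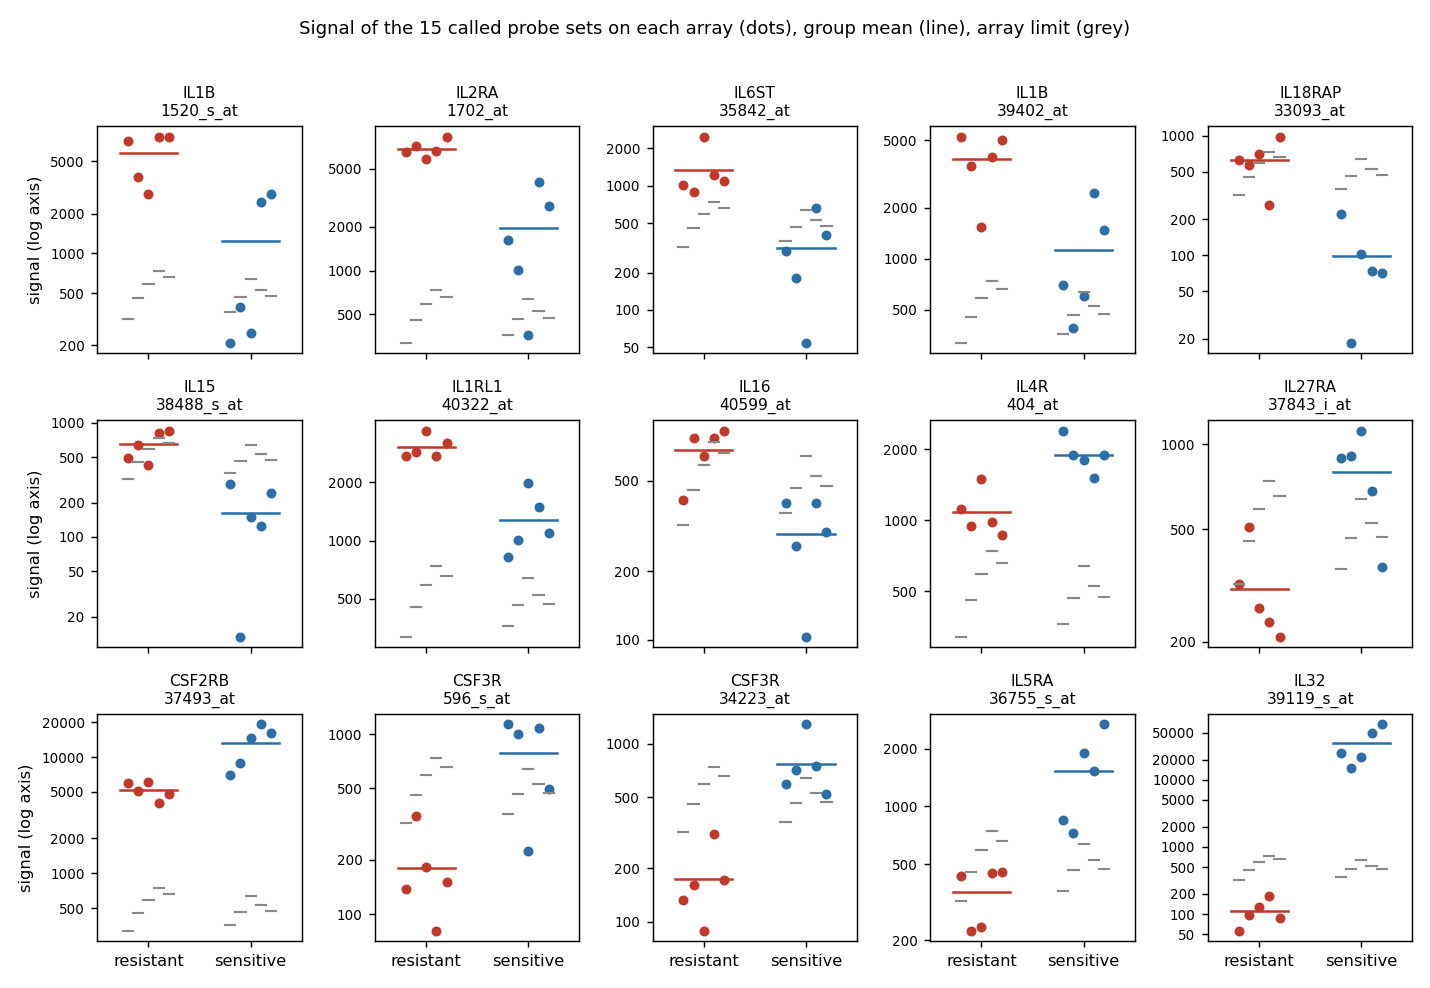
Signals of the 15 called probe sets (y axis, log scale) on each of 5 resistant arrays (red, left) and 5 sensitive arrays (blue, right), in replicate order within each group, with the group mean as a line and each array's limit as a grey dash. IL32 lies between 57 and 186 on resistant arrays, under the limit, as do both CSF3R probe sets, whereas IL18RAP and IL15 lie under it on all sensitive arrays.

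IL1B, which encodes the inflammatory ligand interleukin 1 beta, was higher in resistant cells in both of its probe sets. Probe set 1520_s_at gave 7102, 3815, 2803, 7707 and 7625 on the resistant arrays, against 209.9, 391, 250, 2462 and 2849 on the sensitive arrays. The sensitive line was thus uneven: replicates 4 and 5 were high and met the lowest resistant array, while the other 3 were not above the limit. The groups differed by 2.68 on the log2 scale (SE 0.64, adjusted p = 0.0232, limma). The other probe set, 39402_at, had means of 3854 ± 1476 in resistant and 1126 ± 849 in sensitive arrays (SD, n = 5 each), again with sensitive replicates 4 and 5 the highest of their group, and a log2 difference of 1.82 (SE 0.45, adjusted p = 0.0288). The first call was lost without resistant replicate 1, 4 or 5 or sensitive replicate 1, 2 or 3 (adjusted p of up to 0.0645), and the second without the same arrays or resistant replicate 2 (up to 0.0747) and with a pseudocount of 16 (0.0533). The protease CASP1, which cuts the IL1B precursor into its active form, was lower, at 82.6 ± 93.5 in resistant and 1126 ± 344 in sensitive arrays, with the limit passed by 0 and 5 arrays (adjusted p = 0.000107). The other ligands of the family were not called. IL18, made as a precursor like IL1B, averaged 911 ± 370.5 in resistant and 1069 ± 603 in sensitive arrays, and the 95% interval of its log2 difference ran from -0.97 to 0.61. IL1A was above the limit on 0 resistant and 2 sensitive arrays, and IL33 and the receptor antagonist IL1RN on none.

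Among receptors of the IL-1 family, IL1RL1 (in 1 of its 2 probe sets) and IL18RAP were higher in resistant cells. IL1RL1, the receptor of IL-33 and also called ST2, had signals of 2733, 2859, 3692, 2719 and 3199 in resistant arrays, against 823, 1007, 1983, 1485 and 1096 in sensitive arrays (probe set 40322_at). All resistant arrays lay above all sensitive ones, and the log2 difference was 1.23 (SE 0.23, adjusted p = 0.00541, limma), a call kept without any single array (adjusted p of up to 0.0183). The dimmer probe set of IL1RL1, above the limit on 2 resistant and 0 sensitive arrays, had a log2 difference of 0.85 and was not called (adjusted p = 0.199). IL18RAP, the accessory chain of the IL-18 receptor, had signals of 629, 572, 709.7, 264 and 986 in resistant arrays, against 224, 18.6, 103, 73.5 and 71.9 in sensitive arrays. No sensitive array and 4 resistant arrays were above the limit. The change was at least 1.2-fold against that limit, with a log2 difference of 1.80 (SE 0.31, adjusted p = 0.00302), and the call was kept under each of 18 alternatives in limma. IL18R1, the chain that binds IL-18 itself, averaged 2682 ± 565 in resistant and 1491 ± 557 in sensitive arrays. Its log2 difference of 0.84 was not called (95% interval 0.28 to 1.41, adjusted p = 0.0775).

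The receptors of IL-1 itself were not called. IL1R1, the signalling receptor of IL-1, averaged 733 ± 186 in resistant and 1045 ± 223 in sensitive arrays (log2 difference -0.46, 95% interval -0.91 to -0.0048, adjusted p = 0.272). IL1RAP, the accessory chain shared by the IL-1 and IL-33 receptors, was above the limit on all arrays at 6018 ± 915 in resistant and 5714 ± 1375 in sensitive arrays, with an interval of -0.35 to 0.54 for the log2 difference. IL1R2, a decoy receptor, was above the limit on 0 resistant arrays and 1 sensitive array. IL1RL2, a receptor for IL-36, was above it on 1 resistant and 0 sensitive arrays. IL1RAP lies on chromosome 3. A row of 6 receptor genes of the family lies on chromosome 2, in the order IL1R2, IL1R1, IL1RL2, IL1RL1, IL18R1 and IL18RAP. No other protein-coding gene lies between them. The called genes IL1RL1 and IL18RAP and the uncalled IL18R1 form one end of the row. The nearest measured genes outside it, MAP4K4 and SLC67A2, were at 0.38 and -0.04 (adjusted p = 0.406 and 0.975). The difference between the ends of the row was not tested.

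**Figure D3:**
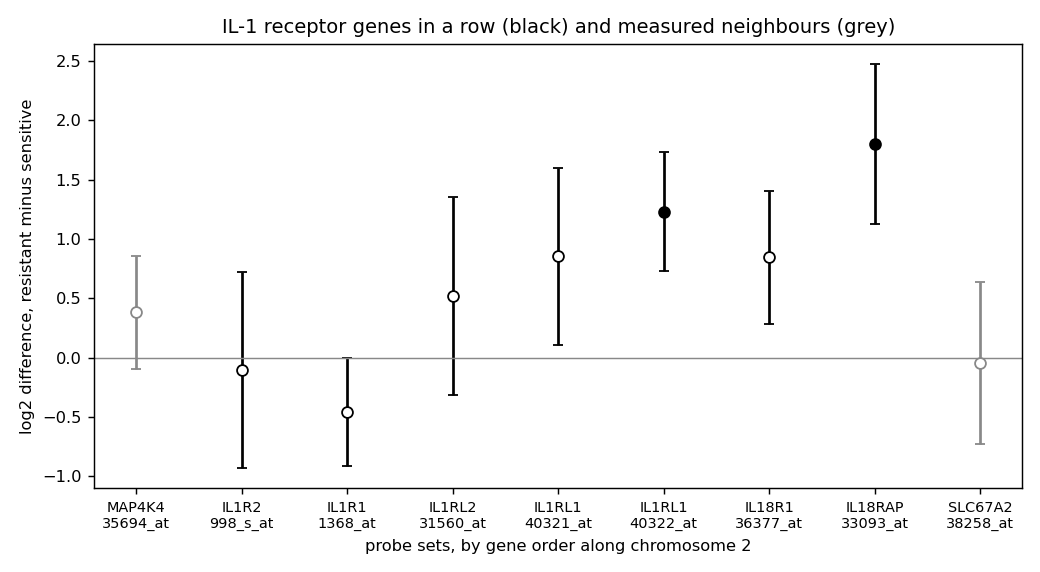
Log2 difference, resistant minus sensitive, with its 95% interval (y axis) for probe sets of the 6 neighbouring IL-1 receptor genes (black) and of the nearest measured genes on either side (grey), in gene order along chromosome 2 (x axis, not to scale). Filled points are called: IL1RL1 probe set 40322_at at 1.23 and IL18RAP at 1.80.

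The sequence upstream of the transcription start is shown for the 2 called receptors of this row and for IL1B, the called ligand of the family. Each run gives the 250 bases before a RefSeq gene start on GRCh38.p14, 5′ to 3′ on the gene's strand. Capitals mark matches on either strand to AGATAA or TGATAA or AGATAG or TGATAG, letters bound by GATA factors, or to TTCNNNGAA, letters bound by STAT dimers. The letters TGACTCA or TGAGTCA of AP-1 and GAGGAA of ETS factors were searched too and are in none of the windows shown, while 4.2% and 23.6% of all windows hold them. No matches shown overlap each other. IL1RL1 has 2 windows in the table and IL18RAP 3, of which the most upstream is shown.
IL1RL1, chr2:102311313-102311562, + strand: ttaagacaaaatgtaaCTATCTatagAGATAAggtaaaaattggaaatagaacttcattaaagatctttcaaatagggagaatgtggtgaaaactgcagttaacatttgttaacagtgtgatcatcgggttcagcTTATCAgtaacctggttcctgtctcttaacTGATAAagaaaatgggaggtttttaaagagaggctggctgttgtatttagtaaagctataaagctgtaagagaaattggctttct
IL18RAP, chr2:102418371-102418620, + strand: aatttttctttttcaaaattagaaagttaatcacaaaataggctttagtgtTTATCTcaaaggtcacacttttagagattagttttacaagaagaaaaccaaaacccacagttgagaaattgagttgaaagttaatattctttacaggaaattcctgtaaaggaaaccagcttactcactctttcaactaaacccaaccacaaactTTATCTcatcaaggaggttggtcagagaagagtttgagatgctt
IL1B, chr2:112836780-112837029, - strand: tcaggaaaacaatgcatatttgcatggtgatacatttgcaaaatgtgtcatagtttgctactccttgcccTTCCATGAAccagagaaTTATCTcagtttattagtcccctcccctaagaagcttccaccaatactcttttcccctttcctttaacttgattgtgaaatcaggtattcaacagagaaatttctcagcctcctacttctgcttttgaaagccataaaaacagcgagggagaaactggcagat
The IL1RL1 window holds 4 GATA matches, a number that 0.174% of all 35116 windows of this length reach. It has the most GATA matches of the 17 windows of called member genes, and that share does not allow for this choice. The IL18RAP window holds 2, and 4.96% of windows hold at least 2, with the last base of the nearer match 39 bases before the start. The IL1B window holds 1 GATA match and 1 STAT match, and 22.3% and 6.6% of windows hold at least 1. Of the 13 called member genes, 11 had windows in the table, 17 in all, and 5 windows held a GATA match, of which 2 are overlapping IL18RAP windows with the same matches. The window of the nearer IL1RL1 start held no GATA match but 2 ETS matches. Of the windows not shown, 1 of CSF3R held 1 ETS match and 1 of IL32 held 2. A match is a description of these letters and shows no binding. GATA2, a progenitor transcription factor of this family, averaged 22456 ± 5532 in resistant and 18111 ± 8664 in sensitive arrays (adjusted p = 0.58).

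In the family of the common gamma chain, the alpha chain of the IL-2 receptor and the ligand IL-15 were higher in resistant cells, and the IL-4 receptor was lower. IL2RA, also called CD25, the chain that raises the affinity of the receptor for IL-2, had signals of 6516, 7199, 5831, 6638 and 8349 in resistant arrays, against 1625, 1009.6, 359.6, 4046 and 2766 in sensitive arrays. The resistant arrays lay close together and above all sensitive ones, which spread over more than 10-fold. The groups differed by 2.11 on the log2 scale (SE 0.48, adjusted p = 0.0174, limma), and without sensitive replicate 2 the adjusted p was 0.0505. The partner chains were not called. IL2RB, the signalling chain for IL-2 and IL-15, was above the limit on 1 array of each group, and IL2RG, the common gamma chain, averaged 5690.2 ± 783 in resistant and 5084 ± 1713 in sensitive arrays (95% interval of the log2 difference -0.30 to 0.72). The ligand IL2 was never above the limit in its 3 probe sets.

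IL15, a ligand that supports lymphocytes and is presented by its own alpha chain, was above the limit on 4 resistant and 0 sensitive arrays in probe set 38488_s_at. Its signals were 488, 638, 427, 814 and 853 in resistant arrays, against 288, 13.4, 150.3, 125 and 240.4 in sensitive arrays. The groups did not overlap, the change was at least 1.28-fold against the limit, and the log2 difference was 1.51 (SE 0.31, adjusted p = 0.00912, limma). With a pseudocount of 16 the adjusted p was 0.0501. The other IL15 probe set was never above the limit. IL15RA, that alpha chain, averaged 2122 ± 592 in resistant and 1967 ± 562 in sensitive arrays in its brighter probe set, with an interval of -0.46 to 0.68.

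IL4R, the receptor chain that binds IL-4 and also serves IL-13, had signals of 1117, 945, 1499, 982 and 864 in resistant arrays, against 2408, 1890.3, 1796, 1510.1 and 1888 in sensitive arrays. The groups were separated by a narrow gap, between 1499 and 1510.1. The log2 difference of -0.76 (SE 0.19, adjusted p = 0.0337, limma) was lost without resistant replicate 1, 2, 4 or 5 or sensitive replicate 1, 2, 3 or 5 (adjusted p of up to 0.0883). IL13RA1, which pairs with IL4R for IL-13, averaged 369 ± 166 in resistant and 613 ± 199 in sensitive arrays and was not called (adjusted p = 0.267). IL7R, the receptor of IL-7, averaged 644 ± 153 in resistant and 479 ± 161 in sensitive arrays (adjusted p = 0.507). IL9R, the receptor of IL-9, averaged 625 ± 303 in resistant and 1347 ± 842 in sensitive arrays in its brighter probe set (adjusted p = 0.298). The ligands IL4 and IL13 were above the limit on 1 array of a group at most.

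In the common beta chain family, whose receptors carry growth signals for eosinophils and other myeloid cells, the private chain for IL-5 and the shared chain were lower in resistant cells. IL5RA, the chain that binds IL-5 and marks the eosinophil lineage, had signals of 432, 225, 236, 446 and 452 in resistant arrays, against 847, 727, 1901, 1532 and 2675 in sensitive arrays (probe set 36755_s_at). Only 1 resistant array was above the limit, all sensitive arrays were, and the groups did not overlap. The log2 difference was -1.70 (SE 0.33, adjusted p = 0.00732, limma), kept without any single array (adjusted p of up to 0.0232). A second IL5RA probe set was never above the limit. CSF2RB, the common beta chain itself, had signals of 5949, 5149, 6086, 4009.6 and 4796 in resistant arrays, against 6961, 8847, 14698, 19081 and 16134 in sensitive arrays (probe set 37493_at). All resistant arrays lay under all sensitive ones, and sensitive replicates 1 and 2 were the nearest to them. Here the log2 difference was -1.24 (SE 0.28, adjusted p = 0.0174), and its other 2 probe sets, at -1.06 and -0.67, were not called (adjusted p = 0.163 and 0.536).

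The other alpha chains of this family had negative log2 differences that were not called. IL3RA, which binds IL-3, averaged 363 ± 205 in resistant and 869 ± 455 in sensitive arrays (log2 difference -0.95, 95% interval -1.94 to 0.04, adjusted p = 0.304). Without sensitive replicate 3, which at 154 was the lowest of its group, its adjusted p was 0.0292. CSF2RA, which binds GM-CSF, averaged 206 ± 99 in resistant arrays, of which 0 were above the limit, and 502 ± 237 in sensitive arrays, of which 2 were (log2 difference -0.92, adjusted p = 0.0967). Of the ligands, IL3 was above the limit on 3 arrays of each group with a log2 difference near 0 (95% interval -0.97 to 0.97), and IL5 on none. Most measured markers of eosinophils were lower too. Of 5 eosinophil genes measured, 4 fell (PRG2, EPX, CLC and RNASE2), where 3.46% of all genes fell by their brightest probe set. ADGRE1 was not called, at 463 ± 304 in resistant and 454 ± 262 in sensitive arrays. The summed signal of the 5 was 1154 to 2086 on resistant arrays and 110355 to 407886 on sensitive arrays. Its largest part in sensitive arrays was PRG2, with a mean of 146602. Their part in the change of IL5RA and CSF2RB was not tested.

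The 250 bases before the IL5RA start are shown because this receptor is the lineage-restricted chain of the family that fell. The capitals are 2 GATA matches, where 4.96% of windows hold at least 2, the nearer with its last base 66 bases before the start.
IL5RA, chr3:3110375-3110624, - strand: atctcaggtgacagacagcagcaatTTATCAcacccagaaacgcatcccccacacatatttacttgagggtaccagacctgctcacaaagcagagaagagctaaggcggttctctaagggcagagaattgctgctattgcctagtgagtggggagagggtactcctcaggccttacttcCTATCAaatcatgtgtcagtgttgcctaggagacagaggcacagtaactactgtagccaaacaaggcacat

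CSF3R, the receptor of granulocyte colony-stimulating factor and the main growth receptor of neutrophil precursors, was lower in resistant cells in both probe sets. Probe set 34223_at gave 133, 161, 89.1, 310.1 and 172 on resistant arrays, against 596, 713, 1280.0, 748 and 520.5 on sensitive arrays. No resistant array and all sensitive arrays were above the limit, so the change was at least 1.38-fold, with a log2 difference of -1.61 (SE 0.26, adjusted p = 0.00189, limma). This call was kept under each of 18 alternatives in limma. Probe set 596_s_at, above the limit on 0 resistant and 4 sensitive arrays, was at least 1.27-fold lower, with sensitive replicate 3 inside the resistant range (log2 difference -1.52, SE 0.37, adjusted p = 0.0267), a call lost without resistant replicate 1, 3, 4 or 5 or sensitive replicate 1, 2 or 4 (adjusted p of up to 0.0738). Beside it, 4 of 11 neutrophil granule genes fell (PRTN3, AZU1, ELANE and CTSG) and 0 rose, where 3.46% of all genes fell by their brightest probe set. The other 7 were not called, and the median log2 difference of the list was 0.15. Summed signals were 1801 to 4523 on resistant and 30390 to 71006 on sensitive arrays. PRTN3 and AZU1, with sensitive means of 31478 and 13047, made up most of the latter. CEBPA, a transcription factor of granulocyte precursors, was lower as well, at 1977 ± 819.5 in resistant and 5056 ± 995 in sensitive arrays (adjusted p = 0.0283), and the part of either in the CSF3R change was not tested.

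The growth factor ligands were not called in any of 9 probe sets, where 7.41% of all probe sets were. CSF1, the ligand of the macrophage receptor CSF1R, averaged 7731 ± 397 in resistant and 6025 ± 1451 in sensitive arrays in its brighter probe set (95% interval of the log2 difference -0.04 to 0.80, adjusted p = 0.331). FLT3LG, the ligand of FLT3, averaged 783 ± 363 in resistant and 556 ± 285 in sensitive arrays (adjusted p = 0.658). CSF3, the ligand of CSF3R, and EPO, the ligand of the erythropoietin receptor, were above the limit on 1 array of a group at most. KITLG, the ligand of KIT, was never above the limit.

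In the gp130 family the shared chain rose in 1 of its probe sets and the IL-27 receptor fell. IL6ST, which encodes gp130, had signals of 1005, 889.7, 2481, 1213 and 1093 in resistant arrays, against 299, 180, 54.5, 656 and 397 in sensitive arrays (probe set 35842_at). All resistant arrays were above the limit and above every sensitive array, of which only replicate 4 passed the limit. The log2 difference was 1.83 (SE 0.39, adjusted p = 0.0122, limma), kept without any single array (adjusted p of up to 0.0361). The other IL6ST probe set was never above the limit (log2 difference 0.69, adjusted p = 0.345). IL27RA, which pairs with gp130 to bind IL-27, had signals of 321, 510, 265, 235 and 209 in resistant arrays, against 899, 908, 1120, 684 and 369.7 in sensitive arrays (probe set 37843_i_at). Sensitive replicate 5 overlapped the resistant range. This gave a log2 difference of -1.08 (SE 0.28, adjusted p = 0.0329), lost without resistant replicate 1, 3, 4 or 5 or sensitive replicate 1, 2, 3 or 4 (adjusted p of up to 0.0862) and with a variance trend in eBayes (0.0512). The brighter IL27RA probe set did not overlap between the groups, at 1729 ± 296 in resistant and 2650.5 ± 213 in sensitive arrays, and missed the threshold (log2 difference -0.60, SE 0.17, adjusted p = 0.0576).

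Private chains and ligands of this family were mostly dim. IL6R, which binds IL-6, averaged 455 ± 174 in resistant and 699 ± 424 in sensitive arrays (95% interval of the log2 difference -1.21 to 0.38). LIFR was never above the limit, and IL11RA and OSMR were above it on 1 array at most. LIF, the leukaemia inhibitory factor, was the brightest ligand probe set of the family measured on all arrays, at 1653 ± 689 in resistant and 765 ± 229 in sensitive arrays. Its log2 difference of 0.96 was not called (95% interval 0.33 to 1.59, adjusted p = 0.0715). IL6 was never above the limit, although its signals averaged 212 ± 141 in resistant and 39.9 ± 23.7 in sensitive arrays (adjusted p = 0.109).

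Of the 17 probe sets of the IL-10, IL-12 and IL-17 families 0 were called in limma, where 7.41% of all probe sets were, and 2 (IL10RB and IL17RA) had an unadjusted p under 0.05. IL10RB, a shared chain of the receptors for IL-10 and IL-22, was above the limit on all arrays in its 3 probe sets, with log2 differences of -0.76, -0.43 and -0.36 (adjusted p = 0.0899, 0.31 and 0.421, limma). The brightest of them had signals of 5142, 4286, 3567, 6796 and 8238 in resistant arrays, against 11252, 8425, 7756, 10554 and 8316 in sensitive arrays, so that resistant replicate 5 overlapped the sensitive range. IL10RA, which binds IL-10, was above the limit on 1 resistant and 3 sensitive arrays, and IL10 itself on 2 resistant and 3 sensitive arrays. IL17RA, the receptor of IL-17, averaged 1669 ± 940.5 in resistant and 3124 ± 805 in sensitive arrays (95% interval of the log2 difference -2.03 to -0.11, adjusted p = 0.212), with resistant replicate 4 at 334. IL12RB1 and IL12RB2, the chains of the IL-12 receptor, were above the limit on 0 resistant arrays, and on 2 and 0 sensitive arrays. IL23A was above it on 3 resistant and 0 sensitive arrays in probe set 1105_s_at (adjusted p = 0.69). Because the array lists IL23A together with a T cell receptor segment for another probe set, the transcript behind this signal is uncertain. The members not named singly in any family (IL11, IL12A, IL12B, IL13RA2, IL17A, IL24 and OSM) were above the limit on 2 arrays of a group at most and were not called.

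IL32 gave the largest difference of all member probe sets. It encodes an intracellular and secreted cytokine known from natural killer and T cells, and its signals were 57, 97.9, 127, 186 and 86.9 in resistant arrays, against 25419.5, 14714, 21967, 50385 and 66412 in sensitive arrays. All resistant arrays were under the limit and all sensitive arrays far above it. The change was at least 58-fold, with a log2 difference of -7.12 (SE 0.37, adjusted p = 3.55e-07, limma). The adjusted p stayed at or under 6.38e-05 under each of 18 alternatives in limma. Sensitive replicates 4 and 5 had the highest IL32 signals, and those replicates were also the highest sensitive arrays for IL1B and IL2RA. PRTN3, a serine protease that cleaves the IL-32 protein, was at 190.1 ± 172 in resistant and 31478 ± 9668 in sensitive arrays (adjusted p = 2.2e-07). Of 9 natural killer cell markers 0 were called, where 8.4% of all genes were by their brightest probe set. Their summed signals were 2856 to 4672 on resistant and 1379 to 3935 on sensitive arrays. Of 15 T cell genes 0 fell and 1 rose (CD8B), where 3.46% and 4.94% of all genes did. Summed T cell signals were 14441 to 18343 on resistant and 9254 to 12245 on sensitive arrays. CD8B itself averaged 6698 ± 1925 in resistant and 1239 ± 635 in sensitive arrays, and the other 14 were not called. Of the genes of the T cell receptor complex, CD3D and CD3G were never above the limit, CD3E was above it on 3 resistant and 3 sensitive arrays, and CD247 on all 10, as was CD4.

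IL16, a cytokine cut from a large intracellular precursor and known to attract CD4 bearing cells, was higher in resistant cells in probe set 40599_at. Its signals were 410, 772, 642, 769.5 and 832 in resistant arrays, against 399, 258, 103, 397 and 296 in sensitive arrays. The groups were separated only by the gap between 399 and 410. Its log2 difference was 1.01 (SE 0.27, adjusted p = 0.0383, limma), and the call was lost under 12 of 18 alternatives, among them the removal of resistant replicate 2, 3, 4 or 5 or sensitive replicate 2, 3 or 5 (adjusted p of up to 0.0952). The dimmer IL16 probe set, with 2 resistant and 0 sensitive arrays above the limit, had a log2 difference of 0.93 (adjusted p = 0.0806).

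**Figure D4:**
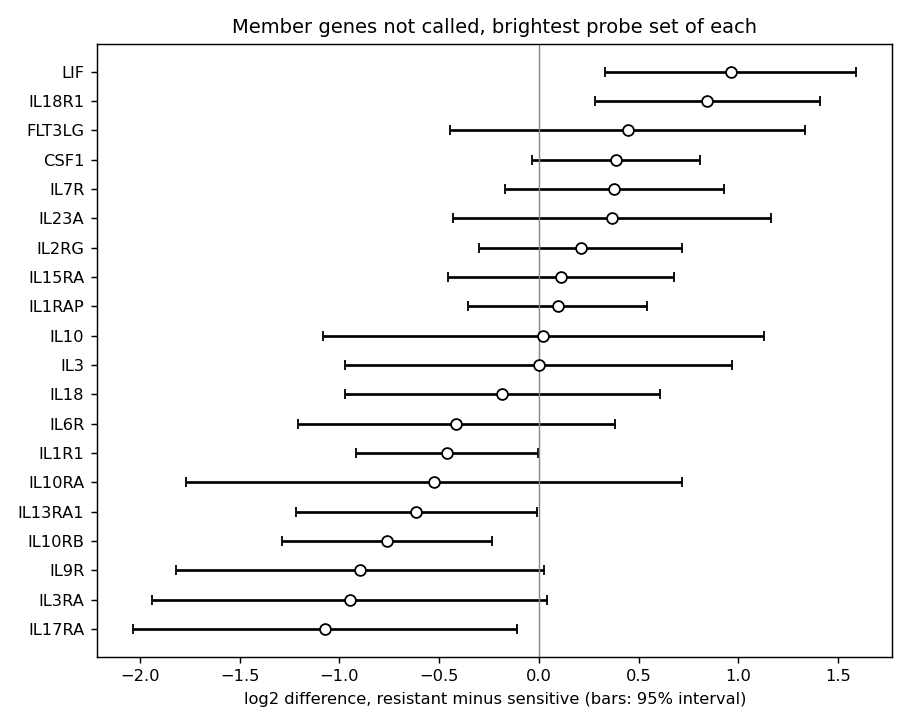
Log2 difference, resistant minus sensitive, with its 95% interval (x axis) for the 20 member genes that were not called and whose brightest probe set was above the limit on at least 3 arrays of a group (y axis). LIF and IL18R1 lie highest at 0.96 and 0.84, and IL17RA lowest at -1.07. Intervals are not adjusted for the number of probe sets.

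The signalling genes below these receptors were described from lists, each gene by its brightest probe set, beside 8.4% of all genes called that way, 4.94% higher and 3.46% lower. In the list of JAK-STAT signalling, 6 of 24 measured genes rose and 0 fell. SOCS1, a feedback inhibitor of JAK kinases, averaged 3776 ± 1379.6 in resistant and 784 ± 286 in sensitive arrays (log2 difference 2.08, adjusted p = 0.00171, limma). STAT4, the STAT protein used by the IL-12 receptor, was at least 3.11-fold higher (adjusted p = 0.00147), with all resistant and no sensitive arrays above the limit. JAK1, the kinase that serves the gamma chain and gp130 receptors, averaged 10156 ± 2865 in resistant and 4901 ± 664 in sensitive arrays (log2 difference 1.01, adjusted p = 0.0103). PIM1, a kinase gene induced by STAT proteins, had a log2 difference of 1.23 (adjusted p = 0.022), and STAT5A and SOCS2 were the other members that rose, at 1.48 and 1.33. JAK2, the kinase bound to the common beta chain, was above the limit on 2 arrays of each group and not called (adjusted p = 0.602), nor were STAT3, STAT5B and STAT6.

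In the list of IL-1 receptor signalling to NF-kappaB, 1 of 18 measured genes rose and 1 fell. TAB2, an adaptor of the kinase TAK1, averaged 4609 ± 986 in resistant and 1938 ± 313 in sensitive arrays (log2 difference 1.19, adjusted p = 0.00246, limma). REL, a subunit of NF-kappaB, had a log2 difference of -0.69 (95% interval -1.09 to -0.28, adjusted p = 0.0454). MYD88, IRAK1, TRAF6 and RELA were not called. Among 9 proteases that process interleukins, CASP1, PRTN3, ELANE and CTSG fell and 0 rose. All but CASP1 of these 4 are also granule genes of neutrophil precursors. Of 11 receptors outside the rule, 1 rose, the tyrosine kinase FLT3 with a log2 difference of 1.39 (adjusted p = 0.000203) but only 1 resistant array above the limit. EPOR, the erythropoietin receptor, averaged 3272 ± 738 in resistant and 3103 ± 633 in sensitive arrays (adjusted p = 0.922), and KIT, the receptor of KITLG, was never above the limit. Of 11 monocyte and macrophage markers 2 rose (FCGR2A and LYZ) and 0 fell, with summed signals of 7395 to 13907 on resistant and 4282 to 6182 on sensitive arrays. Of 9 B cell markers 0 were called, and of 4 mast cell and basophil markers, all never above the limit, 1 fell (FCER1A). By their brightest probe set, 4.94% of all genes rose and 3.46% fell.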

How the data were processed

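Total RNA of 5 resistant and 5 sensitive samples was labelled with biotin and hybridised to 1-colour arrays, per the labels' protocols. The deposited intensity values are linear signals per probe set, and MAS5 is named in the submitters' processing notes; the sources used here give neither its version and settings nor scan dates or slides, so no batch could be tested. The 2% trimmed means of the arrays lay between 2501.33 and 2501.51. Of 12625 probe sets, 67 controls were left out. Gene names came from the platform annotation, with symbols updated by Entrez identifier to GRCh38.p14: 10943 had 1 symbol, 545 several and 1070 none.

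Arrays were scaled to a common 2% trimmed mean, and log2(signal + 114.8), the pseudocount being the 20th percentile of all signals, was fitted without covariates by limma 3.58.1 (lmFit, then eBayes; R 4.3.3). All p-values were adjusted over 12558 probe sets by the Benjamini-Hochberg method, and probe sets under 0.05 were called. Intervals of log2 differences are limma's at 95%. Where a group had no array above the limit, the fold is a bound: the bright group's mean log2 signal against the mean log2 of the limit or, where higher, the signal on each array of the dim group. The fit was tested on simulated data. Members, lists and motifs were chosen with earlier results of these data known. Named genes were all called members, uncalled members above the limit on at least 3 arrays of a group, and up to 6 called genes of each signalling list. The alternatives were 2 other pseudocounts, 2 other normalizations, a filter on dim probe sets, 2 other variance models, the replicate number as a block, an exact permutation test, and each array left out. Upstream sequences are RefSeq's on GRCh38.p14. The number of arrays limits the precision.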

Additional observations from a re-analysis of the deposited data

Results flagged for a closer look

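Of 70 groups of 5 arrays examined for the named member probe sets, 1 held an array far from the others, where chance gives about 1 in 20. For CSF1 (probe set 882_at), resistant replicate 3 had a signal of 7052, and its gap to the next resistant array was 0.717 of the range of the 5 on the log2 scale, above the limit of 0.71. The other 4 resistant arrays lay between 7785 and 8095, and CSF1 was not called.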

How the results depend on the processing

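All 15 called member probe sets kept their direction under every alternative. With a pseudocount of 16, 5 member probe sets were called higher, and with the replicate block 4 were called lower. Over all probe sets that pseudocount gave 467 higher and the block 303 lower, beside 555 higher and 376 lower with the settings used above. Any pairing by replicate number was weak. Deviations of same-numbered arrays correlated at 0.0086 to 0.123, each above the mean correlation with other numbers, which was -0.0375 to -0.0014. Only 1 of 5 resistant arrays correlated best with its own number. Under the block IL4R, CSF2RB, IL6ST, CSF3R (596_s_at) and IL16 had adjusted p-values of 0.0704, 0.0593, 0.0536, 0.0511 and 0.0775, REL and CTSG of 0.0728 and 0.0611, and no other named call was lost. The exact permutation test called 0 member probe sets higher, 0 lower, 0 member genes and 0 genes of the signalling lists, since its smallest p, 0.00794, gave at best an adjusted p of 0.0934 over all probe sets. At that smallest p were 12 member probe sets (13.5%, beside 8.5% of all probe sets), and 24 (27%, beside 17.9%) had an unadjusted permutation p under 0.05. The called genes REL and CTSG also had adjusted p-values of 0.0532 and 0.0509 with the pseudocount of 16, and REL of 0.0852 with a variance trend. With 1 array left out, 4 to 8 member probe sets were called higher, 4 to 7 lower, and 8 to 12 member genes were called, the fewest without sensitive replicate 2. Over all probe sets 428 to 537 were then called higher and 263 to 345 lower, also the fewest without sensitive replicate 2. Arrays scaled to a common median moved the median of all probe sets by -0.10 and gave 7 higher and 10 lower member calls, beside 8 and 7. Over all probe sets this scaling gave 438 higher and 423 lower, beside 555 and 376. Differences near 0 changed sign without being called. IL1RAP was at -0.0368 with median scaling and at -0.0081 to 0.1834 without single arrays, and IL15RA at -0.017 and at -0.0681 to 0.2449. Without single arrays IL18 ranged from -0.3584 to 0.0783. IL3 was at 0.0132 with the pseudocount of 16 and at -0.3486 to 0.3222 without single arrays. IL10 was at -0.0009, -0.0517 and -0.0843 with that pseudocount, quantile normalization and median scaling, and at -0.3125 to 0.2959 without single arrays. IL10RB, IL18R1, LIF and IL3RA, uncalled above, were called under 5, 4, 4 and 1 alternatives. The causes were not tested. Dim probe sets limit the set: 27 of 60 genes had no probe set above the limit on 3 arrays of a group.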
